A study of Mus musculus with 6 samples.

Results

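Genes of TGF-beta, activin and BMP signalling were followed in mouse hearts, old against young. The set comprised 47 genes chosen by name for their place in the pathway: ligands, proteins that hold ligands latent, receptors, SMADs, antagonists, nuclear repressors and ID target genes. The count table lists 18005 gene symbols and holds 46 of the 47. Grem1, a BMP antagonist, was not analysed here, and Bmp10 passed no filter on low counts, so 45 genes were tested among 12893. Hearts came from 3 old and 3 young mice, numbered 1 to 3 in each group, all labelled wild type with no treatment. Strain, sex and age in months are not given in the labels, and each numbered mouse was treated as a separate animal. RNA came from heart tissue with its cell types mixed, so fewer cells of a type and less RNA per cell cannot be told apart. Levels of the atrial genes Myl7, Sln and Bmp10 were low in every library. Of the same atrial list, Nppa and Gja5 were lower and Stard10 and Dkk3 higher in old hearts. The share of atrium in the samples was not tested.

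Ligands of this family bind pairs of type I and type II receptor kinases, which phosphorylate SMAD proteins that enter the nucleus with SMAD4. TGF-beta and activin ligands act mainly through SMAD2 and SMAD3, BMP ligands through SMAD1, SMAD5 and SMAD9. The pathway switches on its own inhibitors, among them SMAD7, SMAD6 and SKIL, and BMP signals switch on ID genes. In the heart TGF-beta is best known for fibroblast activation and matrix deposition, and BMP signals with the receptor ALK1 for endothelial cells. For the description, 19 genes were placed in the TGF-beta and activin branch, 19 in the BMP branch (18 in the table, 17 tested) and 9 in neither alone.

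Libraries held 11295280 to 12514005 counts. Levels are given as CPM, counts scaled to a common library size with TMM factors. The threshold for a call was an adjusted p of 0.05 in edgeR's quasi-likelihood test over all tested genes, and a positive log2 fold change is higher in old hearts. Of all tested genes 22% were called, 11.4% higher and 10.6% lower. Cardiomyocyte markers were abundant, with 64867.4 to 68052.5 CPM over 8 genes in old and 54840.8 to 57969.5 CPM in young hearts. The sums did not overlap, but Actc1 made up most of the difference between them. It had 17120, 18720 and 16140 CPM in old hearts, against 8148, 7905 and 8550 CPM in young hearts. Of these 8 genes Actc1 (1.08 ± 0.08) and Tnni3 (0.35 ± 0.09) rose, Ttn (-0.50 ± 0.12) fell and 5 were not called.

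Old hearts had higher levels of the feedback genes Smad7 and Skil, of the ID genes Id1 and Id3, of the ligands Tgfb1 and Tgfb3 and of the receptor gene Acvrl1. They had lower levels of the BMP ligand genes Bmp4 and Bmp6, of the receptor genes Tgfbr2, Acvr1b and Acvr2b, and of Smad5, Id2 and Gdf15. In all, 7 of the 45 tested genes rose and 8 fell, 33.3% of them against the 22% of all tested genes. In the TGF-beta branch 3 of 19 rose and 2 fell, and the median log2 fold change was 0.09. In the BMP branch 3 of 17 rose and 4 fell, with a median of -0.07, and of the 9 others 1 rose and 2 fell. The 3 values of each group lay apart for 23 of the 45 genes (51.1%, against 39.9% of all tested genes), with old above young for 10 (19.6% of all tested genes) and below for 13 (20.3%). The median over all 45 was -0.04, beside -0.01 over all tested genes. The number that fell was 5 without old 1 and 4 without young 1, and between 6 and 10 when another library was left out; the number that rose lay between 5 and 8. Bmp6, Smad5, Acvrl1, Acvr2b, Id1, Id3, Smad7, Skil and Gdf15 were called in each of the 6 fits with 1 library left out.

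**Figure D1:**
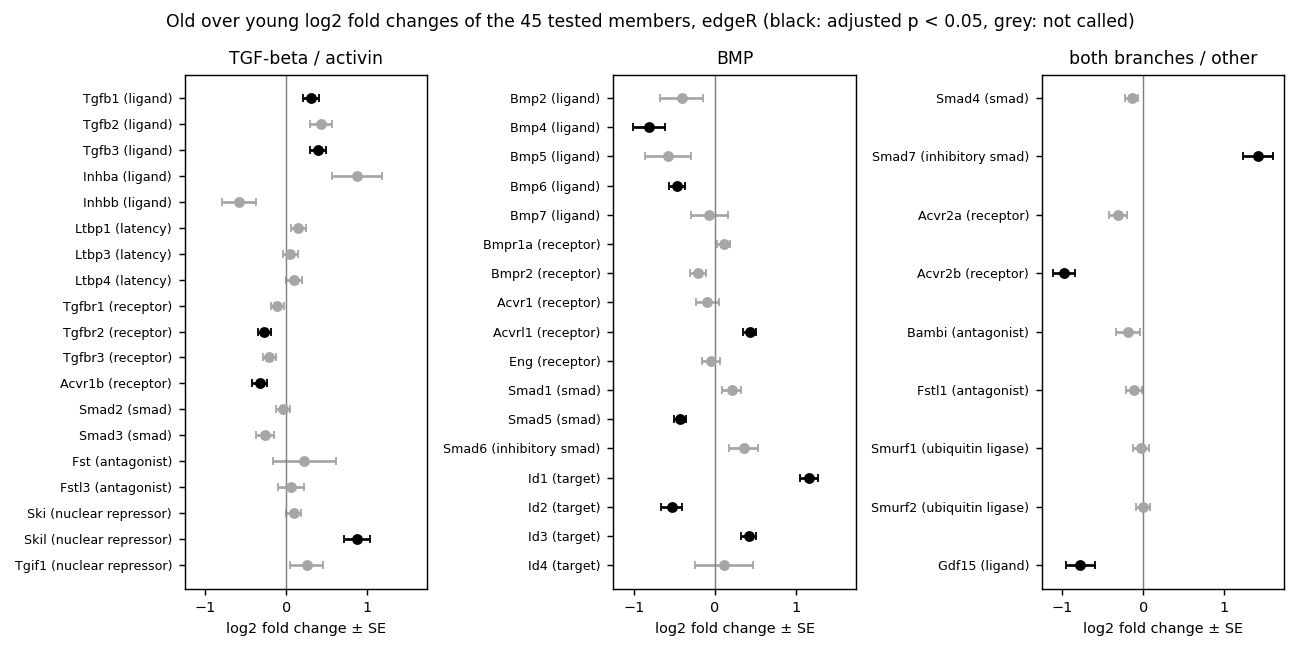
Log2 fold change of old over young hearts (x axis, point with SE) for the 45 tested genes, listed by branch and role down the page, black where edgeR's adjusted p was under 0.05. Smad7 at 1.42 and Id1 at 1.17 lie farthest to the right, and Acvr2b at -0.98 farthest to the left.

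Of the 3 TGF-beta ligand genes Tgfb1 and Tgfb3 rose in old hearts, by small amounts. Tgfb1, the main isoform of injury and fibrosis, had 67.4, 55.5 and 62.3 CPM in old hearts, against 48.8, 46.4 and 54.5 CPM in young hearts. The lowest old library lay just above the highest young one, and the log2 fold change was 0.31 ± 0.10 (SE, edgeR adjusted p = 0.041). This call was lost without old 1, young 1 or young 2 and with library size or upper-quartile scaling, and on the deposited FPKM values (counts per gene length and library total) the groups overlapped. Tgfb3, an isoform with roles in heart and vessel development, had 33.6, 31.4 and 37.7 CPM in old hearts, against 26.5, 24.0 and 28.0 CPM in young hearts. All old values exceeded all young ones (log2 fold change 0.39 ± 0.10, edgeR adjusted p = 0.016), and the call was lost without young 1 or young 2, with library size alone and on the FPKM values. Tgfb2, the third isoform, missed the threshold narrowly, with 14.4, 10.4 and 11.7 CPM in old and 9.13, 8.69 and 9.28 CPM in young hearts (0.43 ± 0.14, edgeR adjusted p = 0.0502). It passed without old 2 (edgeR adjusted p = 0.023), with RLE scaling (0.047), with no filter (0.046) and with the replicate number as a block (0.049). Per gene length, Tgfb1 made up 69.3% ± 1.35 of the summed FPKM of the 3 isoforms in old and 70.6% ± 0.656 in young hearts (SD, n = 3), so their mix overlapped between the groups.

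Activin subunit genes were low, and neither was called. Inhba, which encodes the subunit of activin A, had 39, 22 and 24 counts in old libraries, against 14, 15 and 21 counts in young ones (log2 fold change 0.87 ± 0.31, edgeR adjusted p = 0.065). Inhbb, the subunit of activin B, pointed the other way with 5.84, 4.75 and 8.75 CPM in old and 11.1, 7.90 and 10.1 CPM in young hearts (-0.59 ± 0.21, edgeR adjusted p = 0.065), and old 3 lay within the young range. Inhbb passed without old 3 (-0.87, edgeR adjusted p = 0.0064), with library size alone (0.048), with no filter (0.043) and with the replicate number as a block (0.029). Latent TGF-beta binding proteins, which tether the inactive ligand to the matrix, differed widely in level. Ltbp4 stood at 111 ± 13.0 FPKM in old and 109 ± 13.6 FPKM in young hearts (SD, n = 3), while Ltbp1 (9.60 FPKM in old and 9.15 in young hearts) and Ltbp3 (10.1 FPKM in old and 10.3 in young hearts) were far lower. None of these 3 was called, and their log2 fold changes lay between 0.05 and 0.15, with that of Ltbp3 turning negative (-0.03) with library size alone. The activin traps Fst and Fstl3 had log2 fold changes of 0.22 ± 0.39 and 0.06 ± 0.16 and were not called; of the exonic bases of Fstl3, 47.3% lie opposite Prss57.

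Receptor genes of the TGF-beta and activin branch were all below the young range in old hearts, by small amounts, and 2 of the 4 fell. Tgfbr2, the TGF-beta type II receptor, had 87.8, 85.7 and 99.7 CPM in old hearts, against 110.2, 109.3 and 109.9 CPM in young hearts. Young values were nearly equal, and each old value lay under them (log2 fold change -0.27 ± 0.08, edgeR adjusted p = 0.039). Acvr1b, the activin type I receptor ALK4, had 19.8, 20.4 and 21.8 CPM in old hearts, against 26.1, 24.6 and 27.2 CPM in young hearts (-0.33 ± 0.09, edgeR adjusted p = 0.023). Both calls depended on the libraries used: of the 6 fits with 1 library left out, Tgfbr2 was called in 1 (without old 3) and Acvr1b in 2 (without old 3 and without young 2), and Acvr1b was not called by DESeq2. Tgfbr3, the co-receptor betaglycan, and Tgfbr1, the type I receptor ALK5, had log2 fold changes of -0.21 ± 0.08 (edgeR adjusted p = 0.096) and -0.11 ± 0.08 (edgeR adjusted p = 0.39). Tgfbr3 passed with library size (edgeR adjusted p = 0.033) or upper-quartile scaling (0.046). The groups were apart, old below young, for each of these 4 receptor genes, as they were for 20.3% of all tested genes.

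Of the type II receptors shared by activins and BMPs, Acvr2b fell, by more than any other gene of the set. Acvr2b, also a receptor for myostatin, had 6.90, 7.51 and 9.44 CPM in old hearts, against 14.0, 15.8 and 17.3 CPM in young hearts. The highest old value was well under the lowest young one, and the log2 fold change was -0.98 ± 0.14 (edgeR adjusted p = 0.00069). Acvr2a, its close relative, had 15.7, 19.4 and 21.1 CPM in old hearts, against 23.3, 24.3 and 22.4 CPM in young hearts (-0.31 ± 0.11, edgeR adjusted p = 0.070) and was not called, though it passed without old 3 and with library size or upper-quartile scaling. Summed over Tgfbr2, Bmpr2, Acvr2a and Acvr2b, the type II receptors came to 29.9, 30.03 and 32.6 FPKM in old hearts, against 41.0, 38.1 and 39.4 FPKM in young hearts. FPKM carry no TMM scaling, so old sums lie lower against young ones than on the CPM scale. Acvr2b was the least expressed of these 4 receptor genes, at 0.634 ± 0.114 FPKM in old and 1.32 ± 0.134 FPKM in young hearts (SD, n = 3).

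Receptor SMAD genes of this branch were not called. Smad2 lay at 27.2, 29.0 and 28.4 CPM in old hearts, against 31.3, 29.4 and 26.1 CPM in young hearts (log2 fold change -0.04 ± 0.09), with the groups mixed. Smad3 had 21.9, 22.4 and 26.1 CPM in old and 27.2, 25.0 and 32.2 CPM in young hearts (-0.26 ± 0.11, edgeR adjusted p = 0.11), and old 3 reached into the young range. Smad4, the common partner of both branches, had 71.6, 72.6 and 72.9 CPM in old hearts, against 76.8, 79.6 and 83.0 CPM in young hearts. All old values were lower, by less than the test could call (-0.14 ± 0.08, edgeR adjusted p = 0.21).

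Of the inhibitors that the pathway induces, Smad7 and Skil rose, and Smad7 had the largest rise of the set. Smad7, the inhibitory SMAD that blocks type I receptors of both branches, had 62.2, 69.0 and 36.4 CPM in old hearts, against 20.4, 19.8 and 22.4 CPM in young hearts. Every old library was above the young ones, but old 3 lay much closer to them than old 1 and old 2. The log2 fold change was 1.42 ± 0.19 (edgeR adjusted p = 0.00036) and lay between 1.24 and 1.66 with 1 library left out. Skil, which encodes the SMAD co-repressor SnoN, had 50.4, 48.4 and 31.6 CPM in old hearts, against 20.6, 25.3 and 25.4 CPM in young hearts (0.87 ± 0.16, edgeR adjusted p = 0.0027). Here too old 3 was the lowest of the old libraries. Its relative Ski was not called (0.09 ± 0.09), nor was Tgif1, another SMAD co-repressor, whose old libraries spread from 6.05 to 11.4 CPM around the young range of 6.32 to 7.50 CPM.

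Smad6, the inhibitory SMAD of the BMP branch, was split within the old group. It had 17.0, 29.3 and 29.1 CPM in old hearts, against 20.1, 21.3 and 17.5 CPM in young hearts, so that old 1 lay below every young library and old 2 and old 3 above. The log2 fold change was 0.36 ± 0.18 (edgeR adjusted p = 0.16), and without old 1 it was 0.58 (edgeR adjusted p = 0.0062). The ubiquitin ligases Smurf1 and Smurf2, which mark SMADs and receptors for breakdown, had log2 fold changes of -0.03 ± 0.10 and 0.00 ± 0.09, with overlapping groups. Bambi, a receptor decoy without kinase, and Fstl1, a secreted follistatin-like protein, stood at -0.19 ± 0.15 and -0.11 ± 0.10 and were not called.

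**Figure D2:**
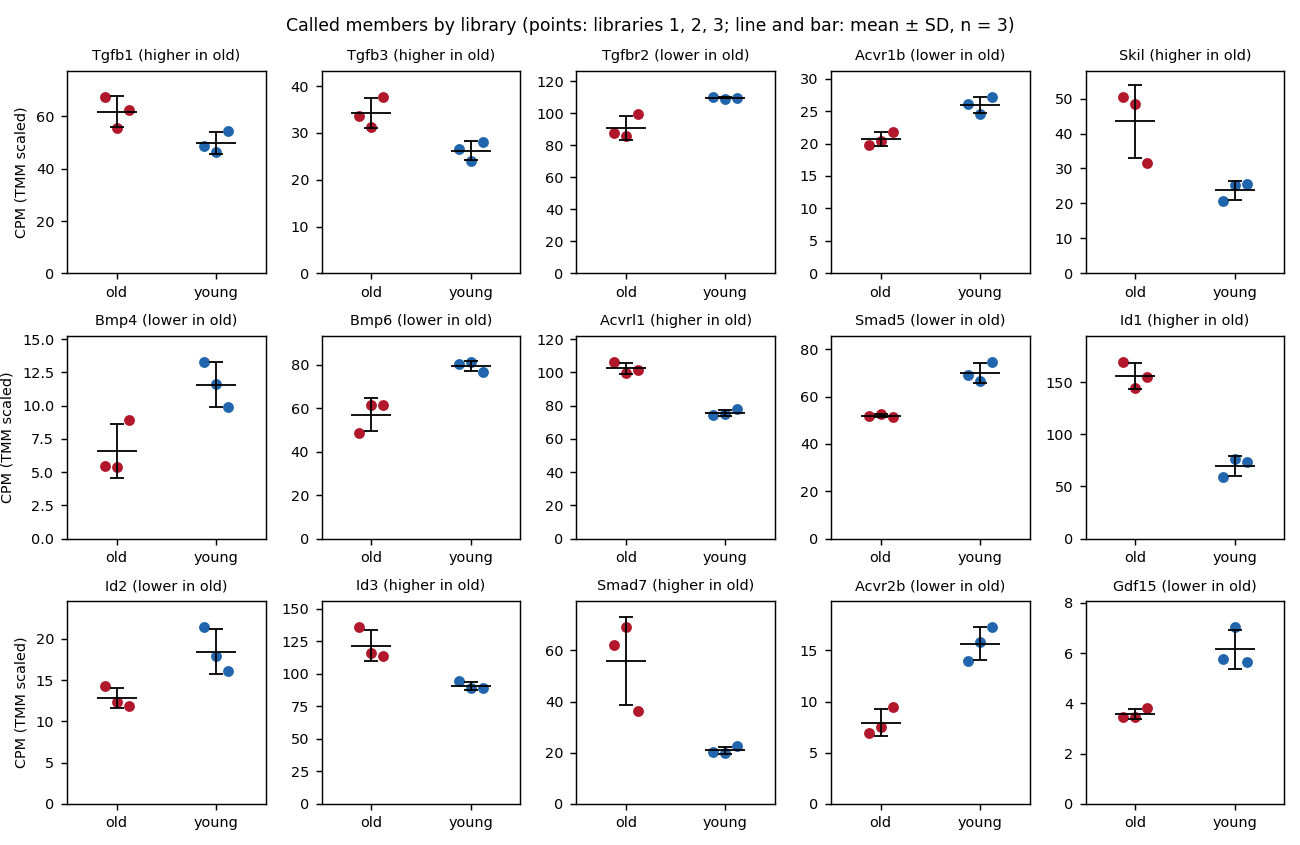
CPM (y axis, from 0) of the 15 called genes in each library, old in red on the left and young in blue on the right, with mean ± SD (n = 3). No old point overlaps the young points in any panel, in genes picked by their call on these same libraries. In the Smad7 and Skil panels old 3 is the lowest old point, at 36.4 and 31.6 CPM.

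Of the 5 tested BMP ligand genes Bmp4 and Bmp6 fell in old hearts, and Bmp6 carried most of the BMP ligand transcripts. Bmp6, made by endothelial cells and known for iron regulation in liver, had 48.5, 61.5 and 61.5 CPM in old hearts, against 80.5, 81.2 and 76.6 CPM in young hearts. The highest old library lay below the lowest young one, and the log2 fold change was -0.47 ± 0.10 (edgeR adjusted p = 0.0061). Bmp4, a ligand of heart and vessel development, had 5.49, 5.35 and 8.92 CPM in old hearts, against 13.3, 11.6 and 9.90 CPM in young hearts. Old 3 was close to the lowest young library, and the fall of -0.81 ± 0.20 (edgeR adjusted p = 0.013) was not called without old 1 or without young 1. Per gene length and without TMM scaling, the 6 BMP ligands summed to 19.8, 23.5 and 26.2 FPKM in old hearts, against 36.4, 35.0 and 33.4 FPKM in young hearts. Bmp6 made up 80.3% ± 3.13 of that sum in old and 78.0% ± 1.10 in young hearts (SD, n = 3). Bmp2, Bmp5 and Bmp7 were low, between 1.04 and 2.86 CPM in every library. Their log2 fold changes were -0.41 ± 0.27, -0.58 ± 0.28 and -0.07 ± 0.23, and none was called. Bmp10, a ligand of atrial muscle, had 1 count in old 3 and 0 counts in the other libraries, and a count of 0 allows up to 3 counts, or 0.232 to 0.265 CPM. Of the exonic bases of Bmp6, 5.7% lie opposite Txndc5 in the GENCODE annotation of the older GRCm38 build. The strand setting of the counting is not given, so reads of the 2 genes within these shared bases cannot be told apart. The largest such overlap among the BMP ligands is that of Bmp5, with 46.7% of its exonic bases opposite an antisense gene. Opposite-strand overlaps of 3% for Acvrl1, 4% for Bmp4, 4.6% for Bmpr1a, up to 7.6% for Tgfb3 and 7.8% for Acvr2a are annotated as well, and of 1.5% to 4.4% for Eng, Fst, Id4, Ltbp3 and Tgfb2. On the same strand, 4.5% of the exonic bases of Tgfbr3, 1.3% of those of Smad5 and 0.9% of those of Smurf2 overlap another gene.

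The promoters of the 2 BMP ligand genes that fell are shown side by side, each from 250 bases before to 50 after the RefSeq start (GRCm38.p6), 5′ to 3′ on the gene's strand. Bmp4 is at chr14:46390620-46390919 on the minus strand and Bmp6 at chr13:38345466-38345765 on the plus strand. Capitals mark matches, on either strand, to 6 motifs: the SMAD boxes CAGAC and GTCTAGAC, the GC-rich SMAD site GGCGCC, the AP-1 site TGANTCA, the cyclic AMP site TGACGTCA and the E-box CACGTG.
Bmp4: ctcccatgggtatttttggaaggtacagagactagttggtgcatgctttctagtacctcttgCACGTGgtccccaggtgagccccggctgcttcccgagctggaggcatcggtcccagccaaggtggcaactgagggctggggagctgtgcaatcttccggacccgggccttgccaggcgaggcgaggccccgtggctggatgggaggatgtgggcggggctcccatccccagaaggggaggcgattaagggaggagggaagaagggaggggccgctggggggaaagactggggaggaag
Bmp6: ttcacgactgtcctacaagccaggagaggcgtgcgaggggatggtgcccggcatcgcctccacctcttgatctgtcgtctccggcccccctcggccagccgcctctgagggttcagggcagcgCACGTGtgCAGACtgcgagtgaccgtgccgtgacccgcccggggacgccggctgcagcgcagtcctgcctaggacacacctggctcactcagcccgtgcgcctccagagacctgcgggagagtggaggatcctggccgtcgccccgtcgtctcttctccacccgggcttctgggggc
Both windows hold 1 CACGTG, which 7.15% of the 32851 RefSeq promoter windows of this length hold, and Bmp6 holds 1 CAGAC, found in 49.6%. No match shown overlaps another. The windows have GC contents of 64% for Bmp4 and 69.3% for Bmp6. Of the 15 called genes 10 had a promoter in the table; Tgfb3, Skil, Acvrl1, Id1 and Smad7 had none.

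Among BMP receptor genes only Acvrl1 was called. Acvrl1 encodes ALK1, the endothelial type I receptor for circulating BMP ligands, and had 106.1, 99.4 and 101.6 CPM in old hearts, against 74.2, 75.2 and 77.8 CPM in young hearts. Replicates were tight and the groups well apart (log2 fold change 0.43 ± 0.08, edgeR adjusted p = 0.0023). Eng, its co-receptor endoglin, was the most expressed receptor of the set per gene length, at 112 ± 15.6 FPKM in old and 122 ± 8.84 FPKM in young hearts (SD, n = 3), and was not called (-0.05 ± 0.11). Bmpr1a, the type I receptor ALK3, had a log2 fold change of 0.11 ± 0.08, Bmpr2, the BMP type II receptor, of -0.21 ± 0.10, and Acvr1, the type I receptor ALK2, of -0.09 ± 0.14, and none of them was called. Acvr1 ranged from 17.3 to 25.98 CPM in old hearts, with old 3 highest, and from 21.5 to 22.4 CPM in young hearts.

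Of the BMP receptor SMADs in the set, Smad5 fell and Smad1 was not called. Smad5 had 51.7, 52.6 and 51.5 CPM in old hearts, against 69.0, 66.5 and 74.6 CPM in young hearts, without overlap (log2 fold change -0.43 ± 0.08, edgeR adjusted p = 0.0030). Smad1 had 28.8, 23.5 and 20.2 CPM in old hearts, against 21.8, 20.9 and 20.1 CPM in young hearts (0.21 ± 0.12, edgeR adjusted p = 0.25), and passed without old 3 (0.33, edgeR adjusted p = 0.049). Smad9, the third BMP receptor SMAD, is outside the set and was picked out after its values were seen. It had 1.59, 2.59 and 3.29 CPM in old hearts, against 4.29, 4.13 and 4.49 CPM in young hearts (-0.78 ± 0.24, edgeR adjusted p = 0.039), a call kept in 1 of the 6 fits with 1 library left out (without old 3) and not made by DESeq2. Of the summed FPKM of Smad1, Smad2, Smad3 and Smad5, Smad5 held 33.9% ± 1.62 in old and 40.9% ± 0.971 in young hearts, and Smad1 36.0% ± 4.76 in old and 28.2% ± 1.88 in young hearts (SD, n = 3).

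ID genes, which encode inhibitors of basic helix-loop-helix factors and are the classic BMP targets, moved in opposite directions: 2 of the 4 rose and 1 fell. Id1 had 169.1, 144.0 and 155.2 CPM in old hearts, against 58.8, 76.3 and 73.6 CPM in young hearts. The lowest old library was far above the highest young one, and the log2 fold change was 1.17 ± 0.11 (edgeR adjusted p = 3e-05). Id3 had 135.5, 115.5 and 113.7 CPM in old hearts, against 94.4, 89.1 and 89.0 CPM in young hearts, a smaller shift without overlap (0.42 ± 0.09, edgeR adjusted p = 0.0070). Id2 had 14.2, 12.4 and 11.9 CPM in old hearts, against 21.4, 17.9 and 16.1 CPM in young hearts. It fell by 0.53 on the log2 scale, with an SE of 0.13 (edgeR adjusted p = 0.013), and was not called when young 1 was left out (edgeR adjusted p = 0.075). Id4 was near 1 CPM in both groups (0.11 ± 0.36). Within the summed FPKM of the ID genes, Id1 took 54.1%, 54.1% and 56.3% in old hearts, against 35.2%, 43.1% and 42.6% in young hearts. Id3 took 41.8% ± 1.21 in old and 51.7% ± 3.17 in young hearts, and Id2 3.30% ± 0.127 in old and 7.88% ± 1.33 in young hearts (SD, n = 3), so that Id1 was the leading ID transcript in old hearts and Id3 in young hearts.

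The promoters of Id3 and Id2, an ID gene that rose and one that fell, are given in the same way as those of the ligands. Id3 is at chr4:136143572-136143871 on the plus strand and Id2 at chr12:25096043-25096342 on the minus strand (GRCm38.p6, RefSeq).
Id3: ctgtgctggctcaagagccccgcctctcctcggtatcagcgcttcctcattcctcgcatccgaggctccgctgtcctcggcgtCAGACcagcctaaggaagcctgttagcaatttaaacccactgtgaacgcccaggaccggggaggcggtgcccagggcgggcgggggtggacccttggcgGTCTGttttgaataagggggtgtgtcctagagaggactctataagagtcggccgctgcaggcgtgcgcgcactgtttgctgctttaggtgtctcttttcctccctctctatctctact
Id2: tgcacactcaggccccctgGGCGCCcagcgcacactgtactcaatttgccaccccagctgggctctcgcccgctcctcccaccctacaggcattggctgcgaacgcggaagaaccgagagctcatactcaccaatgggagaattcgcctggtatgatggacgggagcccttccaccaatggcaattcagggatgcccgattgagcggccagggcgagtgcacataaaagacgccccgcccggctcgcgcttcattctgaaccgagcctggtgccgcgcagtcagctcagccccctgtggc
Id3 holds 2 matches to CAGAC, 1 on each strand, a motif present in 49.6% of all windows. Id2 holds none of these but 1 GGCGCC, found in 11.9% of windows. Neither window matches GTCTAGAC (0.213% of windows), TGACGTCA (1.79%), TGANTCA (7.81%) or CACGTG.

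**Figure D3:**
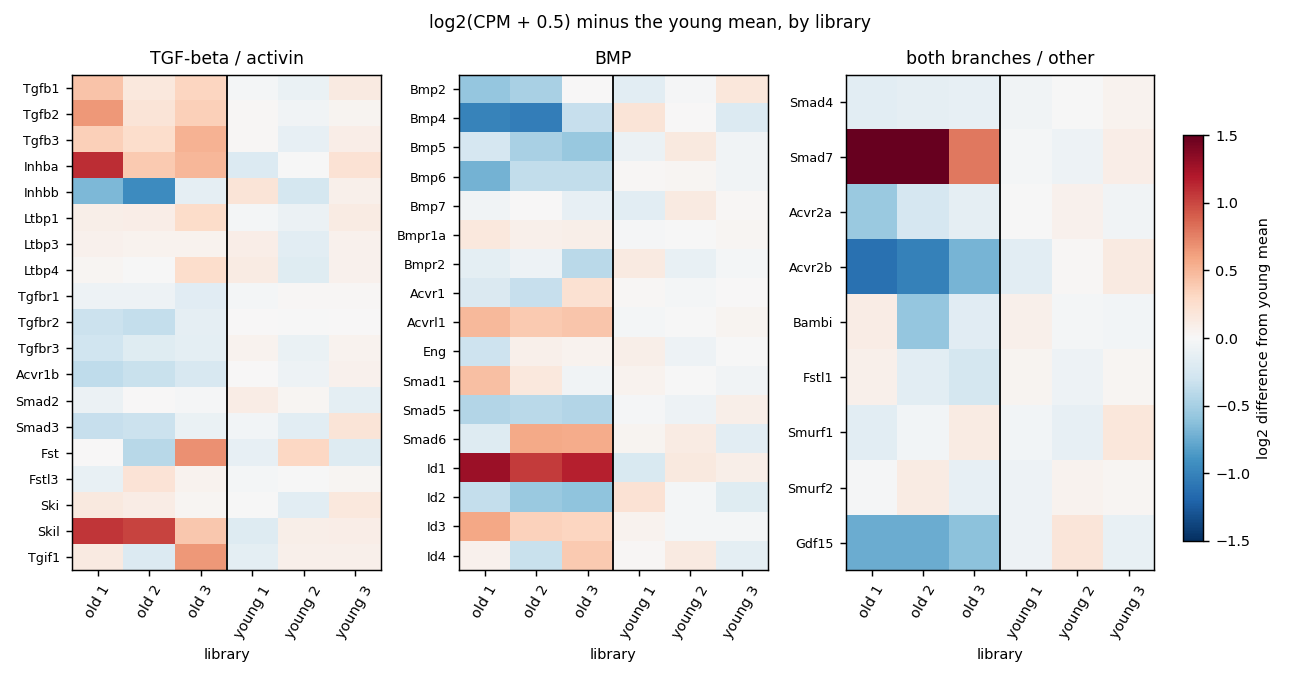
Difference of log2(CPM + 0.5) from the young mean (colour, red higher, blue lower, clipped at 1.5) for the 45 tested genes (rows, by branch) in the 6 libraries (columns, old left of the line). The TGF-beta ligand rows Tgfb1 to Tgfb3 are red and the receptor rows below them pale blue in all old columns, and Smad7 and Id1 are the reddest rows.

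Gdf15, a distant family member that acts as a stress and appetite hormone through a receptor in the hindbrain, was low and fell. It had 3.45, 3.45 and 3.81 CPM in old hearts, against 5.77, 7.02 and 5.65 CPM in young hearts (log2 fold change -0.78 ± 0.18, edgeR adjusted p = 0.0090).

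Other genes of the pathway were read from a list of 84, of which 79 are in the table and 60 were tested. Of these 11 rose and 8 fell, 31.7% against the 22% of all tested genes, with a median log2 fold change of 0.06. The list was chosen with earlier results of these data known, so this share is not an independent test. Klf10, a TGF-beta induced factor, had 70.7, 72.4 and 39.5 CPM in old hearts, against 31.1, 21.6 and 26.3 CPM in young hearts (1.21 ± 0.20, edgeR adjusted p = 0.0016), again with old 3 lowest among the old. Lrrc32, the membrane anchor GARP for latent TGF-beta, rose by 1.04 ± 0.12, Ltbp2 by 0.76 ± 0.17 and Tgfb1i1, the focal adhesion protein HIC-5, by 0.68 ± 0.09. On the BMP side Atoh8 and Hey1, which BMP signals can induce in endothelial cells, rose by 0.73 ± 0.13 and 0.86 ± 0.20, and Hjv, the BMP co-receptor hemojuvelin, by 0.64 ± 0.10. Among the genes that fell, Sost, a BMP and Wnt antagonist, had -1.67 ± 0.30, the ligand gene Gdf6 -1.12 ± 0.28, Tab1, which activates the kinase TAK1, -0.70 ± 0.13 and Ldlrad4, an inhibitor of SMAD phosphorylation, -0.48 ± 0.10. The call of Gdf6 was lost without old 1 or young 2, and the others named here kept theirs with each library left out. Pmepa1 and Tgfbi, both induced by TGF-beta in many cells, were not called (-0.07 ± 0.11 and 0.14 ± 0.08), and Ccn2, another such target, had 0.69 ± 0.18 (edgeR adjusted p = 0.019), a call lost without each young library, and 0.38 without old 2. Pmepa1, Tgfbi and Ccn2 were picked out after their values were seen.

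Some of these genes are also known to respond to acute stimuli, and immediate early genes differed strongly between the groups. Of 26 immediate early genes 25 rose, and their summed level was 2479, 2619 and 5703 CPM in old hearts, against 609.7, 950.4 and 977.3 CPM in young hearts. The highest sum was in old 3, where Smad7, Skil and Klf10 were lowest among the old libraries. Within the list the order differed: Fos had 31.9, 47.8 and 332.1 CPM in old hearts, with old 3 highest, against 4.53, 14.3 and 10.7 CPM in young hearts. Maff had 84.4, 83.3 and 54.8 CPM in old hearts, with old 3 lowest, against 11.7, 13.3 and 14.4 CPM in young hearts, and Nr4a3 and Fosl2 were also lowest in old 3 among the old. These 4 genes were picked out after their values were seen. Id1 was lowest among the old in old 2, at 144.0 CPM. The part of immediate early induction in these results was not tested.

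Endothelial cells express several of the called genes, and the sum of their markers was lower in part of the old libraries. The 8 endothelial markers, from Pecam1 to Vwf, summed to 1605, 1707 and 2081 CPM in old hearts, against 2210, 2009 and 2164 CPM in young hearts, so old 3 lay within the young range. Of the 8, 2 were called, both lower, and the groups of 1 of these, Kdr, overlapped. The markers did not move together: old lay below young without overlap for 2 and above for 1. The latter was Flt1 (log2 fold change 0.24 ± 0.08, edgeR adjusted p = 0.0502), and Emcn stood at -0.01 ± 0.10. Of the 8 genes that fell, only Bmp4, Acvr2b and Gdf15 kept the groups apart when divided by this endothelial sum within each library. Tgfbr2, Acvr1b, Bmp6, Smad5 and Id2 did not: Bmp6 came to 30.2, 36.0 and 29.5 per 1000 endothelial CPM in old hearts, against 36.4, 40.4 and 35.4 in young hearts. The 7 genes that rose kept the groups apart. Division by a sum that is lower in part of the old libraries widens a rise there and narrows a fall, so this outcome depends on direction. Acvrl1 stood at 66.1, 58.2 and 48.8 per 1000 endothelial CPM in old hearts, against 33.6, 37.5 and 36.0 in young hearts. This ratio was chosen after seeing the data. It was computed only for the 15 called genes, all of them apart as CPM before division. No share of all tested genes under the same ratio stands beside it. Fibroblast markers (8 genes, 1737 to 2148 CPM in old and 1820 to 1930 CPM in young hearts), smooth muscle and pericyte markers (8 genes, 1592 to 1802 CPM in old and 1548 to 1766 CPM in young hearts) and epicardial markers (8 genes, 31.8 to 58.0 CPM in old and 10.2 to 57.9 CPM in young hearts) overlapped between the groups. Macrophage markers (8 genes) summed to 885.9 to 1105 CPM in old and 813.6 to 900 CPM in young hearts, and red cell markers (5 genes) to 3188 to 6792 CPM in old and 2159 to 16054 CPM in young hearts. Lymphocyte markers (7 genes) summed to 13.3 to 21.4 CPM in old and 16.1 to 25.1 CPM in young hearts, and adipocyte markers (4 genes) to at most 0.5 CPM in old and 1.1 CPM in young hearts. Of the single markers, 1 fibroblast gene was higher and 2 lower, 3 smooth muscle and pericyte genes higher and 1 lower, 3 macrophage genes higher, 1 epicardial gene higher, 1 lymphocyte gene higher and 1 lower, and 1 red cell gene lower. Skeletal muscle markers (6 genes) summed to 270.8 to 395 CPM in old and 201.9 to 332.1 CPM in young hearts, and the atrial list (8 genes) to 119.3 to 186.3 CPM in old and 404.7 to 469.5 CPM in young hearts. Nppa, atrial natriuretic peptide, carried the difference between the atrial sums. It had 69.2, 112.6 and 49.2 CPM in old hearts, against 407.6, 334.6 and 409.1 CPM in young hearts. Of the 6 atrial genes tested, Nppa (-2.32 ± 0.23) and Gja5, connexin 40 (-0.99 ± 0.14), fell, and Stard10 (0.47 ± 0.10) and Dkk3 (0.74 ± 0.20) rose. Myl7, the atrial myosin light chain, lay between 0.259 and 1.42 CPM in old and between 0.351 and 1.01 CPM in young hearts, and Sln, atrial sarcolipin, had 0 counts in each old library and 0 to 4 in young ones. The part of these marker differences in the results was not tested.

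**Figure D4:**
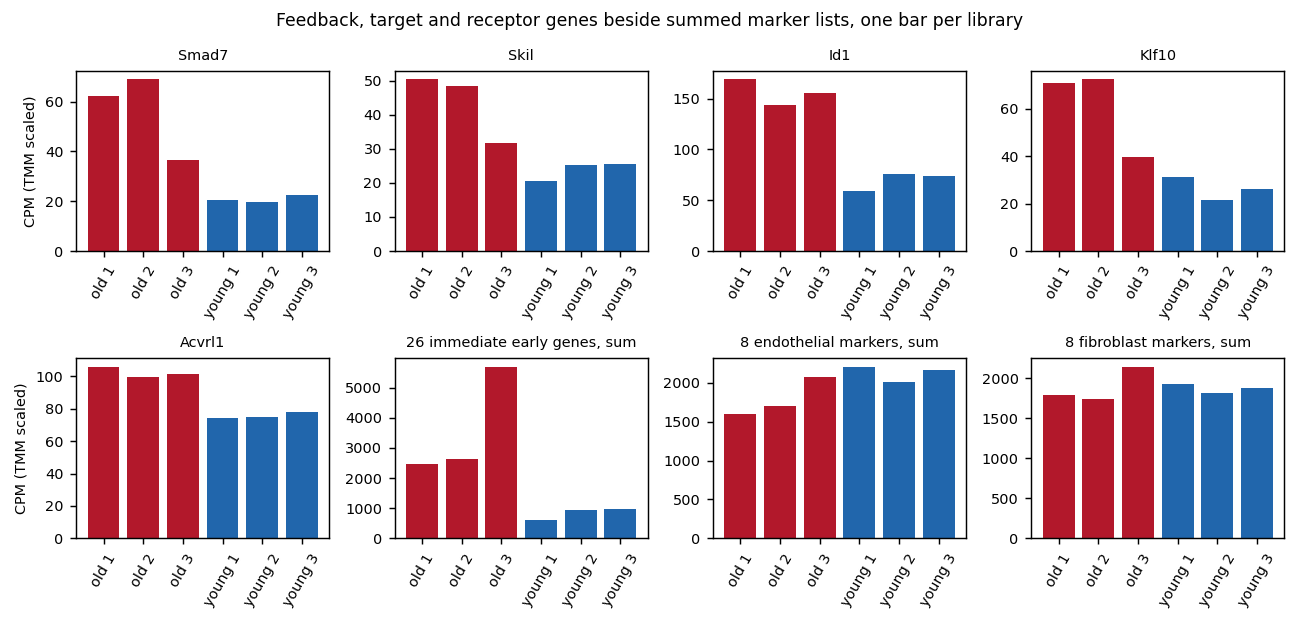
CPM per library (y axis from 0, one bar per library, old red, young blue) of Smad7, Skil, Id1, Klf10 and Acvrl1 and of 3 summed lists. Old 3 has the highest immediate early sum, 5703 CPM, and the lowest old Smad7, 36.4 CPM, while its endothelial sum of 2081 CPM lies within the young range.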

How the data were processed

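Read counts per gene, whole numbers for each library, were deposited by the authors together with FPKM values, which they had divided by gene length and library total. The kits named in the labels' protocols are mirVana for RNA and TruSeq Stranded mRNA, which takes polyadenylated transcripts. The submitters' processing notes name GRCm39 and, with no version or role, StringTie, HTSeq, HISAT2, DESeq, Bowtie2, Cufflinks and Trimmomatic; the strand setting is not given in these notes or the labels. The 12 files of single libraries equalled their column in the tables.

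From the counts, edgeR 4.0.16 in R 4.3.3 fitted the quasi-likelihood test over 6 libraries with no covariate after filterByExpr and TMM, with Benjamini-Hochberg adjustment over 12893 genes. The SE is the fold change divided by the root of F. FPKM, which carry no TMM scaling, served for levels between genes and for summed levels of related genes. No 2 replicates were duplicates (chi-square per degree of freedom 7.9 to 16.7). P-values set the difference between the groups against the spread between the 3 samples of a group, moderated across genes. Tested on simulated counts of 12893 genes for this comparison, the test found 62% of 1.5-fold and 84% of 2-fold changes, and unchanged genes made up 8.02% of calls. The simulation changed 50 genes at each of 1.5-, 2-, 3- and 5-fold, a smaller share than the 22% called in the data. These rates may therefore differ for the data.

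Each of the 47 genes is accounted for, the called ones with every library's value; of the other pathway genes, called ones are named, at most 12 by smallest p, and 1 of these is not reported here. The genes and lists were chosen with earlier results of these data known. Alternatives were other scalings and filters, a replicate block, omission of single libraries or of the 10 most abundant genes, limma 3.58.1 (voom, and log2 FPKM with pseudocounts of 1 and 0.1), DESeq2 1.42.0 and a threshold of 0.01. Promoter windows come from RefSeq on GRCm38.p6, an older build than the authors'.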

Additional observations from a re-analysis of the deposited data

How the results depend on the processing

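No called gene of the set changed direction in any alternative, and 9 of the 15 were called in every alternative at the 0.05 threshold. With 1 library left out, the 7 rises were 5 to 8 and the 8 falls 4 to 10 (10 without old 3). In the TGF-beta branch the 3 rises were then 1 to 4 and the 2 falls 0 to 3, and in the BMP branch the 3 rises were 3 to 4 and the 4 falls 2 to 4. With library size alone the TGF-beta branch had 1 rise and 4 falls, on FPKM values 1 rise with each pseudocount and filter, and with DESeq2 1 fall. At an adjusted p under 0.01, 4 of all members fell, with 1 rise and 0 falls in the TGF-beta branch and 2 falls in the BMP branch. The causes were not tested; fits with a library left out hold fewer samples. Library size alone moved the median log2 fold change of all genes to -0.09 and the share of calls that were higher to 32.7%, against -0.01 and 51.7% under TMM, and the median of the set to -0.12. In the fits on FPKM, 35.1% to 38.1% of calls were higher. Same-numbered old and young libraries deviated together with correlations of 0.08, 0.07 and 0.01, so the numbers were not taken as pairs; with the replicate block 8 genes rose and 9 fell, including the 7 and 8 called without it. Genes near 1 CPM, such as Fst, Id4 and Bmp5, rest on few counts, and small changes in them were not detectable at this depth.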
